A study of Mus musculus with 4 samples.

Results

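The genes described here are those of the class I phosphoinositide 3-kinases (PI3K) in 32Dcl3-Abl1ko cells: 4 catalytic genes (Pik3ca, Pik3cb, Pik3cd and Pik3cg), 5 regulatory genes (Pik3r1, Pik3r2, Pik3r3, Pik3r5 and Pik3r6) and the adaptor gene Pik3ap1. They were taken by gene name from a table of 23756 genes, and all 10 names matched 1 row each. The RNA-seq libraries described here came from 2 groups of 32D cells, an IL-3-dependent murine hematopoietic line. All of these cells carried the Abl1 KO genotype made by CRISPR/Cas9. The paper's methods also name samples with intact Abl1 kept with IL-3, which are not among these libraries. Cells kept with IL-3 are called Abl1ko/IL3+ (2 libraries, replicates 1 and 2) and cells growing without IL-3 are called Abl1ko/IL3- (2 libraries, replicates 1 and 2). The Abl1ko/IL3- cells are the growth factor-independent cells that came up after gradual IL-3 withdrawal. They were therefore selected, and not briefly starved. The study used clones from 2 guides and does not tie them to the libraries, so a difference between clones and a difference between replicates cannot be told apart. The question asked of these genes was which PI3K subunits the cells expressed, and whether the subunit genes differed between cells growing without and with IL-3.

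Class I PI3K is a lipid kinase that makes the membrane lipid PIP3, which in turn recruits AKT and other kinases. In class IA enzymes, a p110α, p110β or p110δ catalytic subunit is held by a p85 or p55 regulatory subunit, whose SH2 domains dock on phosphorylated receptors and adaptors such as those of the IL-3 receptor. In the class IB enzyme, p110γ is held by p101 or p84 and responds to G proteins. The p110δ and p110γ isoforms are known for their restriction to blood cells, whereas p110α and p110β are found in most tissues.

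The libraries held 48953174 to 60382588 counts, so that 3 counts, used as the floor, corresponded to 0.0497 to 0.0613 CPM (counts scaled to library size, here before TMM normalization). The labels call the cells pre-B-cells, whereas the libraries carried some myeloid genes at high levels. The 8 myeloid progenitor markers summed to between 530 and 1036 FPKM (a level scaled by gene length and library depth), with Mpo at 345.6 to 528 FPKM in Abl1ko/IL3+ and 134.9 to 226.8 FPKM in Abl1ko/IL3- libraries. Other markers of this list were low, with 0 to 4 counts of Kit, 0 to 45 counts of Csf3r and 2.10 to 4.54 FPKM of Elane. The 6 pre-B markers that were analysed summed to between 12.1 and 14.6 FPKM, with 607 to 1044 counts of Cd79b, 57 to 157 counts of Vpreb1, 43 to 635 counts of Cd79a and 0 to 4 counts of Rag1. For the edited gene Abl1, replicates 1 and 2 held 1322 and 2222 counts with IL-3 present, and 1544 and 2256 counts in its absence. No unedited cells were analysed here, so these counts do not check the edit.

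Among the catalytic genes Pik3cd dominated in every library. Pik3cd (ENSMUSG00000039936, chromosome 4, 149649168 to 149702571, minus strand, GRCm38) encodes p110δ, the main isoform of leukocytes. Its level was 77.9 and 74.6 FPKM in Abl1ko/IL3+ replicates 1 and 2, and 79.6 and 86.0 FPKM in Abl1ko/IL3- replicates 1 and 2. It stood at percentile 96.7 to 97.4 of all genes of the table. No other member came near it: the next gene in the order of mean FPKM, Pik3ap1, had at most 17.9 FPKM, and the ranges of the 2 genes did not overlap.

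Pik3cd was also the member whose level moved least between the libraries. After TMM normalization it had 507 and 583 CPM in Abl1ko/IL3+ and 582.9 and 581.6 CPM in Abl1ko/IL3- libraries. The range over the 4 libraries was 0.20 on the log2 scale, and 1.16% of the genes tested had a smaller one. Of the 137 genes with a mean log2 CPM within 0.5 of that of Pik3cd, 1.46% had a smaller range. Comparing Abl1ko/IL3- with Abl1ko/IL3+, its log2 fold change was 0.10 (standard error 0.32, 95% interval -0.72 to 0.91), with a Benjamini-Hochberg adjusted p = 0.989 in the quasi-likelihood fit of edgeR. In FPKM both Abl1ko/IL3- libraries were above both Abl1ko/IL3+ libraries, whereas in TMM-normalized CPM the groups overlapped.

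Pik3cg (ENSMUSG00000020573, chromosome 12, 32173473 to 32208659, minus strand) encodes p110γ, the isoform activated by G protein-coupled receptors. It was second among the catalytic genes, with 17.5 and 5.12 FPKM in Abl1ko/IL3+ and 10.6 and 12.7 FPKM in Abl1ko/IL3- libraries. Both Abl1ko/IL3- libraries lay between the 2 Abl1ko/IL3+ libraries. The log2 fold change was 0.09, with a wide 95% interval of -1.34 to 1.51 (adjusted p = 0.996 in edgeR).

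Pik3cb (ENSMUSG00000032462, chromosome 9, 99036654 to 99140087, minus strand) encodes p110β. It had 6009 and 696 counts in Abl1ko/IL3+ and 2899 and 4614 counts in Abl1ko/IL3- libraries, or 12.5 and 1.43 FPKM against 7.20 and 10.2 FPKM. Abl1ko/IL3+ replicate 2 stood apart as the lowest, and Abl1ko/IL3+ replicate 1 was the highest. In CPM the 2 Abl1ko/IL3+ replicates differed 7.28-fold and the 2 Abl1ko/IL3- replicates 1.31-fold. This gave a log2 fold change of 0.40 (95% interval -1.93 to 2.73, adjusted p = 0.980 in edgeR). It rested on the Abl1ko/IL3+ libraries, since it was 2.46 without Abl1ko/IL3+ replicate 1 (adjusted p = 0.151) and -0.41 without Abl1ko/IL3+ replicate 2 (adjusted p = 0.508).

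Pik3ca (ENSMUSG00000027665, chromosome 3, 32397671 to 32468486, plus strand) encodes p110α, the isoform most often mutated in solid tumors. It was the lowest of the catalytic genes on average, with 3.62 and 0.722 FPKM in Abl1ko/IL3+ and 0.557 and 1.16 FPKM in Abl1ko/IL3- libraries. Abl1ko/IL3+ replicate 1 was high, and the other 3 libraries had at most 1.16 FPKM. The log2 fold change of -1.29 was the most negative among the catalytic genes, with a 95% interval of -3.34 to 0.76 (adjusted p = 0.892 in edgeR). Without Abl1ko/IL3+ replicate 1 it was 0.09.

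**Figure D1:**
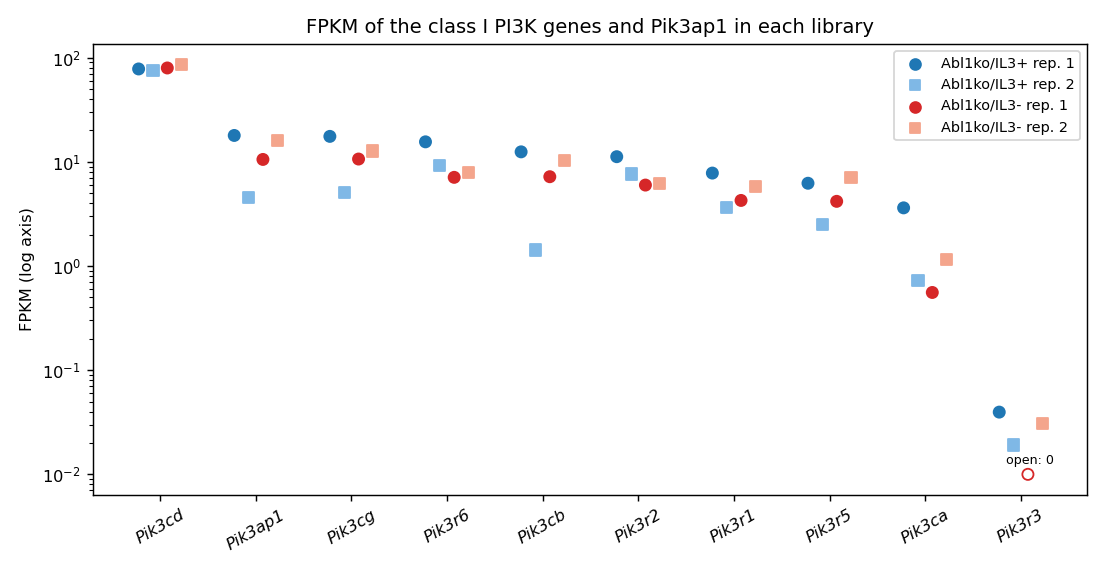
FPKM (log axis) of the 10 genes in each of the 4 libraries, in the order of their mean over the libraries. Each point is 1 library, and the open symbol marks a value of 0 drawn at the bottom of the axis. Pik3cd lies between 74.6 and 86.0 FPKM in all 4 libraries, above every other member, and Pik3r3 lies below 0.04 FPKM.

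The stretches upstream of annotated RefSeq start sites (GRCm38.p6) are shown for the most abundant catalytic gene, Pik3cd, and for Pik3cg, Pik3cb and Pik3ap1, whose CPM had the same order over the 4 libraries. Pik3r1 had this order too, and its stretches, which held no match, are not printed. Pik3cd has further annotated start sites downstream of the one shown, and their stretches, also without a match, are not printed. Capitals mark GAGGAA, a core bound by the myeloid factor PU.1, on either strand. Each line reads 5′ to 3′ on the strand of the gene and ends at the base before the start site. The 4 stretches are chr4:149698709-149698808, chr12:32208660-32208759, chr9:99140212-99140311 and chr19:41385103-41385202, all on the minus strand. None of them overlaps an exon in GENCODE, and those of Pik3cd and Pik3cb lie inside the GENCODE span of their gene.
Pik3cd: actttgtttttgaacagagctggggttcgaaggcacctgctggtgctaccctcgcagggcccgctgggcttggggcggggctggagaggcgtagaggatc
Pik3cg: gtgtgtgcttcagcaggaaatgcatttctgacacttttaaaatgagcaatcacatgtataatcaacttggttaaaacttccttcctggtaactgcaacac
Pik3cb: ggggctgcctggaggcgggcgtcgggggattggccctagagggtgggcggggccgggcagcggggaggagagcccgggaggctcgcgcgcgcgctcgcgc
Pik3ap1: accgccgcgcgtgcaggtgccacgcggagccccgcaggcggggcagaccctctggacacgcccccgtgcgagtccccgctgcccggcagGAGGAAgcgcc

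Pik3cg has a second annotated start site downstream of the first. Its upstream window held GAGGAA once on each strand, and GTAAACA, the core bound by FOXO factors, once. The GAGGAA match on the strand of the gene and the GTAAACA match, both within an exon in GENCODE, are printed with the matching letters in capitals, from chr12:32208605-32208634 and chr12:32208544-32208573 on the minus strand.
Pik3cg GAGGAA: agccccagaaaaGAGGAAgagacgaggtgc
Pik3cg GTAAACA: tttttcctaaaGTAAACAaatgatcctcct

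In the 250 bases before each start site, GAGGAA or its reverse complement TTCCTC was found in 4 of 15 promoters of the members, against 23.3% of all 32851 promoters searched. The 4 belonged to Pik3cg, Pik3ap1 and Pik3r3 (2 start sites). GTAAACA or TGTTTAC was found in 1 of the 15 promoters, that of Pik3cg, against 3.17% of all promoters. TTCNNNGAA, the palindrome bound by STAT5 downstream of IL-3, was found in 0 of the 15 and in 7.02% of all promoters. A match in these windows is a match of letters only. The 15 promoters belong to 9 members, and Pik3r6 was not searched.

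Summed, the p85 and p55 genes had lower FPKM than the class IA catalytic genes in each library. Pik3r2 (ENSMUSG00000031834, chromosome 8, 70768176 to 70776713, minus strand) encodes p85β and was the highest of them, with 11.2 and 7.64 FPKM in Abl1ko/IL3+ and 5.98 and 6.15 FPKM in Abl1ko/IL3- libraries. Both Abl1ko/IL3- libraries were below both Abl1ko/IL3+ libraries. In CPM the means were 44.3 ± 6.23 with IL-3 and 28.5 ± 1.05 without it (SD, n = 2 each, no test on these means alone). The log2 fold change was -0.63 (standard error 0.32, 95% interval -1.47 to 0.20, unadjusted p = 0.108 and adjusted p = 0.868 in edgeR). It stayed between -0.77 and -0.47 when each library was left out, where the kept sign follows from groups that do not overlap. It did not pass the threshold.

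Pik3r1 (ENSMUSG00000041417, chromosome 13, 101680563 to 101768217, minus strand) encodes p85α and its shorter forms, which both stabilize p110 and restrain it. It had 7.80 and 3.61 FPKM in Abl1ko/IL3+ and 4.26 and 5.75 FPKM in Abl1ko/IL3- libraries. The groups overlapped, with both Abl1ko/IL3- libraries between the Abl1ko/IL3+ libraries. Pik3r1 had a log2 fold change of -0.17 (95% interval -1.22 to 0.88, adjusted p = 0.981 in edgeR).

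Pik3r3 (ENSMUSG00000028698, chromosome 4, 116221618 to 116303056, plus strand), which encodes p55γ, was at the edge of detection. It had 15 and 7 counts in Abl1ko/IL3+ and 0 and 11 counts in Abl1ko/IL3- libraries. The count of 0 allows up to 3 counts, the floor used here. A fold change of so few counts, with a library at 0, cannot be read as a level, although the gene passed the expression filter and entered the test (adjusted p = 0.975 in edgeR). A protein-coding gene on the same strand, Gm49337, shares 1289 bases or 24.3% of the exon bases of Pik3r3 in GENCODE. Gm49337 has no row in the deposited counts, so which gene the reads on the shared bases came from is uncertain.

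Of the summed p85 and p55 FPKM, Pik3r1 made 41.0% and 32.0% in Abl1ko/IL3+ and 41.6% and 48.2% in Abl1ko/IL3- libraries. Pik3r2 made nearly all of the remainder, since Pik3r3 reached at most 0.257%. The share of Pik3r1 was higher in both Abl1ko/IL3- libraries, although the nearest libraries of the groups, at 41.0% and 41.6%, lay close together (exact permutation test, two-sided, p = 0.333). With 2 libraries against 2, 0.333 is the smallest p that this test can give, so that it cannot pass 0.05 here.

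The summed p85 and p55 FPKM, divided by the summed FPKM of Pik3ca, Pik3cb and Pik3cd, was 0.203 and 0.147 in Abl1ko/IL3+ and 0.117 and 0.123 in Abl1ko/IL3- libraries. The 2 Abl1ko/IL3- libraries were both below the Abl1ko/IL3+ libraries (exact permutation test, two-sided, p = 0.333). The numerator was 19.0 and 11.3 FPKM with IL-3 and 10.2 and 11.9 FPKM without it, and by itself it overlapped between the groups. The denominator was 94.0 and 76.7 FPKM against 87.3 and 97.4 FPKM and overlapped as well.

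The shares of the catalytic genes did not separate the groups. Pik3cd made 69.8% and 91.1% of the summed catalytic FPKM in Abl1ko/IL3+ libraries and 81.2% and 78.1% in Abl1ko/IL3- libraries (exact permutation test, two-sided, p = 1). Pik3cg made 15.7% and 6.26% against 10.9% and 11.5%. Pik3cb made 11.2% and 1.74% against 7.34% and 9.29%, and Pik3ca at most 3.24% in any library. The widest shares were thus those of the 2 Abl1ko/IL3+ replicates, which lay on either side of the Abl1ko/IL3- replicates for Pik3cd, Pik3cg and Pik3cb.

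The partners of p110γ lie side by side on chromosome 11. Pik3r5 (ENSMUSG00000020901, 68432121 to 68497849, plus strand) encodes p101, through which Gβγ activates the enzyme, and had 6.23 and 2.50 FPKM in Abl1ko/IL3+ and 4.17 and 7.02 FPKM in Abl1ko/IL3- libraries. Abl1ko/IL3+ replicate 2 was the lowest and the groups overlapped. For Pik3r5 the log2 fold change was 0.38 (95% interval -0.91 to 1.67, adjusted p = 0.964 in edgeR).

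Pik3r6 (ENSMUSG00000046207, 68503019 to 68552698, plus strand) encodes p84, the other p110γ partner. It had 3778 and 2263 counts in Abl1ko/IL3+ and 1441 and 1798 counts in Abl1ko/IL3- libraries, or 15.6 and 9.20 FPKM against 7.10 and 7.90 FPKM. Both Abl1ko/IL3- libraries were below both Abl1ko/IL3+ libraries. In CPM the means were 50.1 ± 12.01 with IL-3 and 30.5 ± 0.615 without it (SD, n = 2 each). The log2 fold change was -0.71 (standard error 0.34, 95% interval -1.59 to 0.17, unadjusted p = 0.0912 and adjusted p = 0.860 in edgeR). This was the lowest adjusted p among the members, and it did not pass the threshold.

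Within each group both genes were higher in the same replicate, whereas between the groups Pik3r6 was lower in both Abl1ko/IL3- libraries and Pik3r5 overlapped. The FPKM ratio of Pik3r6 to Pik3r5 was 2.50 and 3.68 in Abl1ko/IL3+ and 1.70 and 1.13 in Abl1ko/IL3- libraries, a comparison chosen after the values were seen. Pik3r6 was the higher gene in each library, and the ratio was lower in both Abl1ko/IL3- libraries (exact permutation test, two-sided, p = 0.333, the smallest it can give). Summed, in a ratio also chosen after the values were seen, Pik3r5 and Pik3r6 stood at 1.24 and 2.28 times the FPKM of Pik3cg in Abl1ko/IL3+ libraries and at 1.06 and 1.17 times in Abl1ko/IL3- libraries.

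Pik3ap1 (ENSMUSG00000025017, chromosome 19, 41272377 to 41385102, minus strand) encodes BCAP, an adaptor that offers docking sites to p85 and was described first in B cells. It had 17.9 and 4.55 FPKM in Abl1ko/IL3+ and 10.54 and 16.0 FPKM in Abl1ko/IL3- libraries, which made it the second member in the order of mean FPKM. Its CPM differed 3.28-fold between the Abl1ko/IL3+ replicates, and both Abl1ko/IL3- libraries lay between them. For Pik3ap1 the log2 fold change was 0.29 (95% interval -1.32 to 1.89, adjusted p = 0.980 in edgeR).

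**Figure D2:**
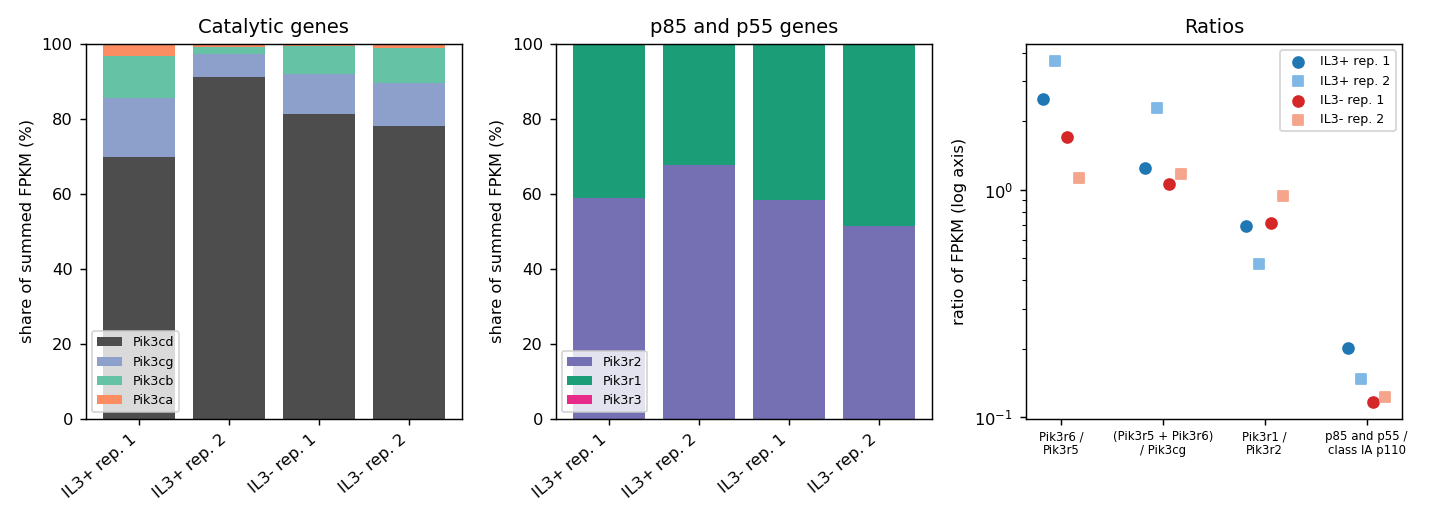
Shares of each catalytic gene (left) and of each p85 and p55 gene (middle) in the summed FPKM of its set, in percent, 1 stacked bar per library, and FPKM ratios between members on a log axis (right), 1 point per library. Pik3cd makes between 69.8% and 91.1% of the catalytic FPKM. The ratio of Pik3r6 to Pik3r5 lies between 2.50 and 3.68 in the Abl1ko/IL3+ libraries and between 1.13 and 1.70 in the Abl1ko/IL3- libraries.

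In the order of mean FPKM the members were Pik3cd, Pik3ap1, Pik3cg, Pik3r6, Pik3cb, Pik3r2, Pik3r1, Pik3r5, Pik3ca and Pik3r3. Only the first and the last stood clear of their neighbour. The 7 neighbouring pairs between Pik3ap1 and Pik3ca had overlapping ranges. Within a library, Pik3r2 was above Pik3r1 in 4 of 4 libraries, and Pik3r5 above Pik3ca in 4 of 4.

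None of the 10 members passed the threshold of 0.05 in edgeR, with a count of 0 for adjusted and also 0 for unadjusted p-values. Over the 16535 genes tested the adjusted threshold was passed by 0%, and the unadjusted threshold by 5.91%. DESeq2's Wald test also called 0 members, against 1.64% of the genes it tested. The adjusted p-values of the members ranged from 0.860 to 0.996. All 10 members passed the expression filter, 5 with a positive and 5 with a negative log2 fold change, where 51.9% of all genes were negative, and the median was -0.04, beside -0.03 over all genes tested. For Pik3r2 and Pik3r6 both Abl1ko/IL3- libraries were below both Abl1ko/IL3+ libraries. That was 2 of 10 members, a share near the 17.9% of all genes tested that showed the same order. The opposite order, which 19.4% of the genes showed, was found for 0 members in CPM. In either direction the groups were apart for 37.3% of the genes.

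**Figure D3:**
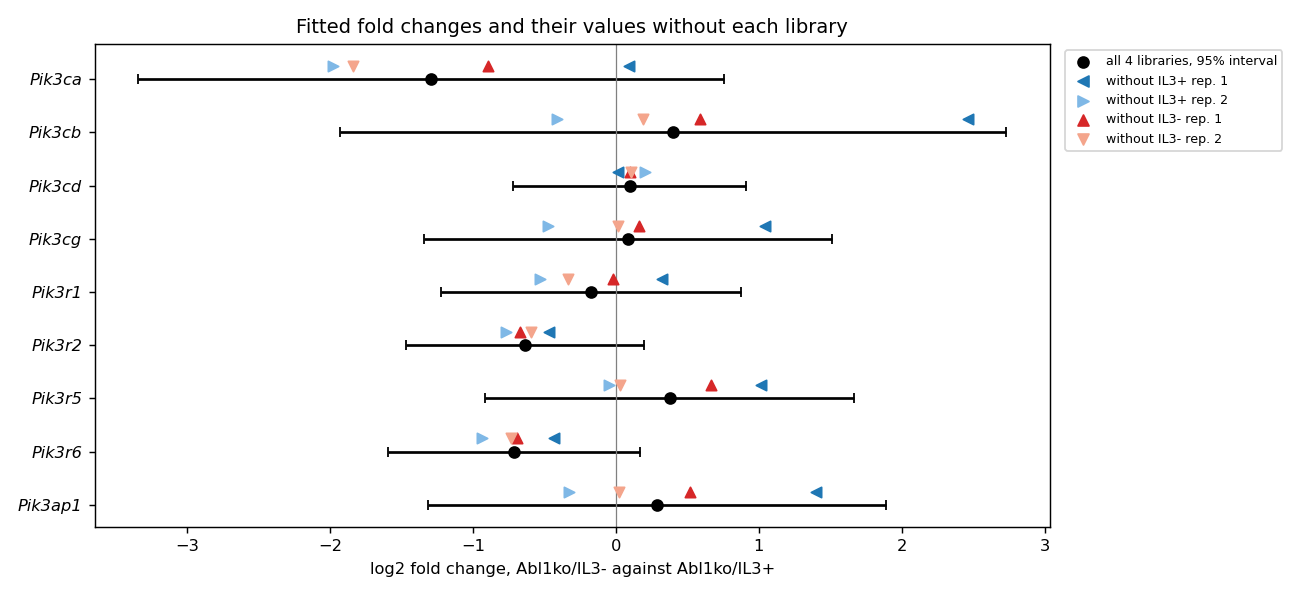
Log2 fold change of 9 members in Abl1ko/IL3- against Abl1ko/IL3+ cells, as fitted by edgeR on all 4 libraries (black points, with 95% intervals) and with each library left out (coloured triangles). Pik3r3 is not drawn because of its low counts. Every interval includes 0, and Pik3cd, Pik3r2 and Pik3r6 keep their sign without any single library, whereas Pik3cb runs from -0.41 to 2.46. For Pik3r2 and Pik3r6 the kept sign follows from groups that do not overlap in CPM.

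The 2 Abl1ko/IL3+ replicates stood on opposite sides for most members. Leaving out Pik3r3, 7 of 9 members were highest in Abl1ko/IL3+ replicate 1, and 5 of 9 were lowest in Abl1ko/IL3+ replicate 2, namely Pik3cb, Pik3cg, Pik3r1, Pik3r5 and Pik3ap1. For these 5 genes Abl1ko/IL3- replicate 1 was below Abl1ko/IL3- replicate 2. Centred on the mean of each gene, the median log2 CPM of the 9 members was 0.59 and -0.51 in Abl1ko/IL3+ replicates 1 and 2. It was -0.10 and 0.10 in Abl1ko/IL3- replicates 1 and 2. Pik3cd went against the others, as its lowest CPM was in Abl1ko/IL3+ replicate 1. The share of all genes tested that were highest in Abl1ko/IL3+ replicate 1 or lowest in Abl1ko/IL3+ replicate 2 was not counted. Across all genes, the correlation of log2(CPM + 1) was 0.9545 for the 2 libraries with IL-3. For the other pairs of libraries it was 0.9527 to 0.9772. The split therefore cannot be read as particular to the members.

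**Figure D4:**
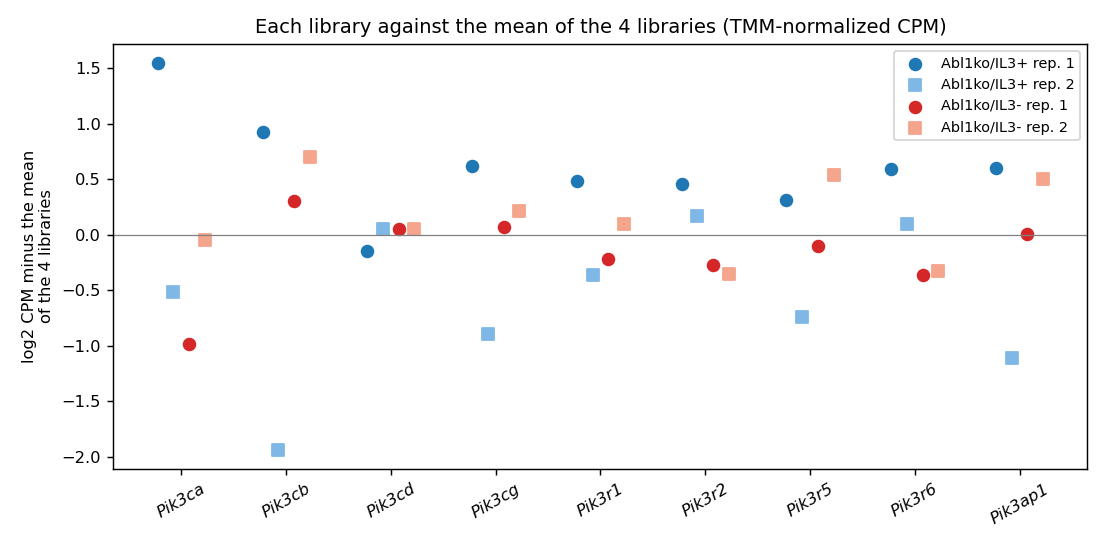
Log2 CPM (TMM-normalized) of each member minus its mean over the 4 libraries, 1 point per library. Pik3r3 is not drawn because it had 0 counts in Abl1ko/IL3- replicate 1. The 2 Abl1ko/IL3+ libraries lie at the extremes for Pik3cb, Pik3cg, Pik3r1 and Pik3ap1, and all 4 libraries lie close together for Pik3cd.

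Other features of the libraries moved with this split. Gene length was taken from counts divided by FPKM. The quartile of the longest genes had a median of 0.27 and -0.18 on the same centred log2 scale in Abl1ko/IL3+ replicates 1 and 2. Its median was -0.02 and 0.01 in Abl1ko/IL3- replicates 1 and 2. The shortest quartile ran the other way, from -0.32 to 0.21 between the Abl1ko/IL3+ replicates. The 5 macrophage markers summed to 138 and 17.1 FPKM in Abl1ko/IL3+ and 34.4 and 73.2 FPKM in Abl1ko/IL3- libraries. Among them C1qa had at most 12 counts, C1qb had 1104 counts in Abl1ko/IL3+ replicate 1 and at most 27 elsewhere, and Csf1r was highest in Abl1ko/IL3- replicate 2, with 3711 counts against 2501 in Abl1ko/IL3+ replicate 1. The 6 mast cell and basophil markers summed to 992 and 149.5 FPKM against 286.7 and 258.6 FPKM. Among them Prss34, Cpa3, Fcer1a and Gata2 were higher in Abl1ko/IL3+ replicate 1 than in replicate 2. Mcpt8 (18.3 and 40.5 FPKM) and Ms4a2 (0.623 and 0.969 FPKM) were lower there. The 4 erythroid markers were highest in Abl1ko/IL3+ replicate 2, at 6787 FPKM against 178 FPKM in replicate 1, and stood at 3552 and 1849 FPKM in Abl1ko/IL3- libraries, carried by Hba-a1. By contrast, the 6 markers of maturing neutrophils summed higher in both Abl1ko/IL3- libraries, at 776 and 4117 FPKM against 594 and 176 FPKM with IL-3. With IL-3, Ngp made most of the sum (540.7 and 157.7 FPKM). S100a8 had 1.56 and 0.428 FPKM with IL-3 and 87.7 and 164.6 FPKM without it. For S100a9 the values were 13.1 and 2.50 FPKM against 230.4 and 656.8 FPKM. Ltf and Camp were also higher in both Abl1ko/IL3- libraries, whereas Ngp and Lcn2 overlapped between the groups. The T cell markers analysed reached at most 2.14 FPKM and the fibroblast markers at most 0.393 FPKM in sum. The part of gene length and of these cell types in the levels of the PI3K genes was not tested. In bulk RNA, fewer cells of a type and less RNA per cell cannot be told apart.

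The genes whose pattern over the 4 libraries was closest to that of Pik3cd, by the Euclidean distance of centred log2 CPM, were Prkar1a (0.042), Tceal9 (0.042) and Fam32a (0.049). Prkar1a, for instance, had 428 and 473 CPM with IL-3 and 485 and 480 CPM without it. The closest genes to Pik3r2, the highest regulatory gene of class IA, were 6030443J06Rik (0.052), 4632415L05Rik (0.067) and Ddx24 (0.072). Of these, 6030443J06Rik had only 0.403 and 0.313 CPM with IL-3 and 0.23 and 0.207 CPM without it, so its distance rests on few counts. Among the members the closest to Pik3r2 was Pik3r6, at 0.18, and the closest to Pik3cd was Pik3r1, at 0.80. The distances rest on 4 libraries and carry no test.

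The genes around class I PI3K showed no change past the adjusted threshold either, which 0% of all genes tested passed in edgeR. Of the other PI3K classes, 4 genes were tested, 3 with a negative and 1 with a positive log2 fold change, against 51.9% negative over all genes tested. Pik3c3, the class III kinase VPS34 of autophagy and endosomes, had 14.4 and 9.84 FPKM with IL-3 and 8.04 and 8.98 FPKM without it (log2 fold change -0.51, adjusted p = 0.890 in edgeR). Its partner Pik3r4 had 3.37 and 2.45 FPKM against 2.43 and 2.53 FPKM (log2 fold change -0.24, adjusted p = 0.967 in edgeR). Pik3c2b, a class II kinase, was the only 1 of the 4 with an unadjusted p-value under 0.05, which 5.91% of all genes tested had. It was counted 123 and 377 times in Abl1ko/IL3+, and 17 and 4 times in Abl1ko/IL3- libraries. Its log2 fold change was -4.38 (standard error 1.16, unadjusted p = 0.0132, adjusted p = 0.727 in edgeR). In CPM, both Abl1ko/IL3- libraries were below both Abl1ko/IL3+ libraries for 3 of the 4 genes, an order shown by 17.9% of all genes tested. The opposite order was shown by 0 of the 4 and by 19.4% of all genes tested.

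Of the 18 genes tested that lead from the IL-3 receptor to PI3K, 15 had a negative and 3 a positive log2 fold change, with a median of -0.21, beside 51.9% negative and a median of -0.03 over all genes tested. Of these 18, 0 reached an unadjusted p-value under 0.05, which 5.91% of all genes did. Csf2rb2, the IL-3-specific beta chain of the mouse, had 286.3 and 63.8 FPKM with IL-3 and 87.5 and 90.4 FPKM without it (adjusted p = 0.905 in edgeR). The common beta chain Csf2rb had 61.9 and 32.6 FPKM against 37.997 and 7.06 FPKM (adjusted p = 0.924). The adaptor Grb2 had 102.6 and 78.4 FPKM against 74.0 and 92.3 FPKM (adjusted p = 0.980). For the beta chains Abl1ko/IL3+ replicate 1 was again the highest library.

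Among the 9 phosphatases and inhibitors that oppose PI3K, 4 log2 fold changes were positive and 5 negative, and their median was -0.01. Over all genes tested, 51.9% were negative and the median was -0.03. None of the 9 reached an unadjusted p-value under 0.05 in edgeR, which 5.91% of all genes tested did. Inpp5d, which encodes the blood cell phosphatase SHIP1, had 24.4 and 13.3 FPKM with IL-3 and 15.7 and 16.5 FPKM without it (adjusted p = 0.973 in edgeR). Pik3ip1, a transmembrane inhibitor of p110, was above both Abl1ko/IL3+ libraries in both Abl1ko/IL3- libraries, with 4.30 and 5.54 FPKM against 7.30 and 7.60 FPKM (log2 fold change 0.56, standard error 0.38, adjusted p = 0.899). In CPM this order was shown by 1 of the 9 and by 19.4% of all genes tested. The opposite order was shown by 3 of the 9 and by 17.9% of all genes tested.

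Of the 13 genes tested whose proteins bind PIP3, 12 had a negative and 1 a positive log2 fold change, with a median of -0.37, beside 51.9% negative and -0.03 over all genes tested. Dapp1, an adaptor with a PH domain, had 103.1 and 49.7 FPKM with IL-3 and 60.8 and 70.8 FPKM without it (adjusted p = 0.979 in edgeR). Akt1 had 48.3 and 36.3 FPKM against 30.2 and 35.7 FPKM (adjusted p = 0.920), and the exchange factor Vav1 had 41.3 and 35.5 FPKM against 39.6 and 37.9 FPKM (adjusted p = 0.9997). The unadjusted threshold of 0.05 was passed by 2 of the 13, against 5.91% of all genes. Plcg1, a phospholipase C, was counted 3997 and 1910 times in Abl1ko/IL3+, and 367 and 726 times in Abl1ko/IL3- libraries (log2 fold change -2.27, standard error 0.49, unadjusted p = 0.00580, adjusted p = 0.727). The tyrosine kinase Btk was counted 11577 and 5416 times against 2110 and 3450 times (log2 fold change -1.43, standard error 0.43, unadjusted p = 0.0204, adjusted p = 0.737).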

How the data were processed

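Total RNA was depleted of ribosomal RNA and sequenced by the authors on an Illumina HiSeq instrument. Per the paper's methods the reads were aligned to GRCm38 and counted per gene with Rsubread and featureCounts, whereas the submitters' processing notes name STAR, Cuffdiff and mm10; versions and strand setting are not given in the sources used here. The authors deposited raw counts and FPKM for each library. Counts divided by FPKM gave the same relative gene length in each library, within 1.04-fold for 99% of 12946 genes.

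The members, gene lists, markers and motifs were chosen with earlier results of these data known. Counts were filtered with filterByExpr, TMM-normalized and tested with edgeR 4.0.16 (R 4.3.3; quasi-likelihood test, two-sided, Benjamini-Hochberg over 16535 genes, threshold 0.05). Standard errors and 95% intervals came from the F statistic. P-values measure the spread between 2 libraries per group, described as biological duplicates. Intervals and floors on counts cover counting error only. Alternatives were DESeq2 1.42.0, limma 3.58.1 on log2(FPKM + 1) and log2(FPKM + 0.1), library size alone, other filters, a replicate block and leaving out each library. The edgeR step was also run on simulated counts with known changes, all larger than those fitted for the members on all libraries. That run does not address changes as small as those of the members. Genes named were the members, Abl1, the 3 highest of each list by mean FPKM (or genes past the adjusted threshold), and the nearest 3 in pattern. Plcg1 and Btk were named for their unadjusted p-values after these were seen. Of the genes this rule names and the markers, some are not reported here.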

Additional observations from a re-analysis of the deposited data

How the results depend on the processing

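No member of the PI3K genes was called under any alternative tried. With 8 settings other than leaving out a library, the 79 fold changes of members that could be computed kept their direction (adjusted p between 0.749 and 0.9998), and Pik3r3 had no value with 10 counts in every library. The members' median log2 fold change, -0.04, was near 0 and changed sign with that filter (0.09) and with limma at a pseudocount of 1 (0.05) or 0.1 (0.01). The number of genes called was 0 with edgeR and 271 with DESeq2 (1369 at an unadjusted p under 0.05, against 978); the cause was not tested.

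Without 1 library at a time, the genes called ranged from 0 to 22, with 22 without Abl1ko/IL3- replicate 1 and 1 without Abl1ko/IL3- replicate 2, and the members' median ranged from -0.50 to 0.21. The log2 fold change ranged from -1.98 to 0.091 for Pik3ca and from -0.53 to 0.32 for Pik3r1, positive without Abl1ko/IL3+ replicate 1. It ranged from -0.41 to 2.46 for Pik3cb, -0.47 to 1.05 for Pik3cg, -0.051 to 1.013 for Pik3r5 and -0.32 to 1.40 for Pik3ap1, negative without Abl1ko/IL3+ replicate 2. For Pik3r3, at 15 counts or fewer and limited by depth, the fitted value ranged from -6.35 to 0.068, positive without Abl1ko/IL3- replicate 1. The -6.35 is set against a single library at 0 counts, depends on the prior count and is no bound.

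The replicate numbers did not pair the libraries (correlation of deviations -0.19). The replicate block gave 0 called genes and 0 called members, with a median log2 fold change of the members of -0.01 and 548 genes at an unadjusted p under 0.05. The block with the numbers crossed, added after seeing the data, also called 0 genes and 0 members.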
